A study of Mus musculus with 6 samples.

Results

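Eph receptors, ephrins, semaphorins, plexins, neuropilins, Slits, Robos, netrins and netrin receptors were examined in fibroblasts sorted from mouse synovium, the tissue that lines the joint. The genes were chosen by symbol, as all rows of the count table named after one of these families, which gave 67 of 24348 genes. The symbols alone set membership, but the group was proposed with earlier IC against vehicle results of these libraries in view, so its counts are a description and support nothing. Among them, 65 had at least 10 counts in at least 3 libraries and were tested. Epha8, with 0 to 15 raw counts per library, and Unc5d, with 0 to 12, did not reach this floor. The 65 tested genes are therefore not the whole group. Slit1, Epha6 and Epha10 had no row under these symbols in the count table and so were not analysed.

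The 3 IC libraries came from C57BL/6 mice that received immune complexes (IC), that is, antigen with antibody attached to it, and the 3 vehicle libraries from C57BL/6 mice given vehicle, labelled as control treatment. According to the study's methods, the complexes were ovalbumin with rabbit polyclonal antibody against it, injected into the tail vein, and knee synovium was digested with collagenase before sorting. Neither group carries a transgene or deletion in the labels, and the age of the mice, the time after injection and the number of mice per library are not given there. The comparison addresses whether fibroblasts respond, as secondary cells, to a systemic IC challenge. Because nothing states that each library came from a separate mouse, p-values measure only the spread between these samples, which may be technical.

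Axon guidance genes encode short-range and secreted cues and the receptors that read them. Ephrins stay on the cell surface and bind Eph receptor tyrosine kinases on a neighbouring cell, and both partners can signal. Secreted or membrane-bound semaphorins bind plexins, often with a neuropilin as co-receptor, while Slits bind Robos and netrins bind Dcc, Neo1 or Unc5 receptors. Outside the nervous system the same families act in blood vessel patterning, cell positioning and bone and joint tissue.

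Total counts were 40114331 to 56714304 per library and overlapped between groups. Between pairs of libraries of the same group, chi-square over its degrees of freedom ranged from 13.8 to 61.5, above the value near 1 that counting error alone gives, and each library counted as 1 replicate. The 10 fibroblast markers were detected in all libraries and summed to 33400 to 34500 CPM (counts scaled to the library total) after IC and 32400 to 39100 after vehicle. Among them DESeq2 called the lining gene Prg4 higher (log2 fold change 0.94, adjusted p = 0.0103) and Lum lower (−0.36, adjusted p = 0.0025). The sorted cells were not free of other lineages. Endothelial, mural cell, Schwann cell, skeletal muscle and epithelial markers were all detected, at the levels given further below. In bulk libraries, fewer cells of a type and less RNA per cell cannot be told apart. Macrophage markers summed to 32.1 to 50.6 CPM after IC and 39.5 to 51.6 after vehicle, with 6 of the 10 in the table and Adgre1, Ptprc, Cd163 and Vsig4 not in it. Lymphocyte markers, of which 2 of 8 were in the table, summed to 2.65 to 3.69 CPM and 6.53 to 8.9, and Ighm was called lower.

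Secreted cues were the most abundant transcripts of the group. Levels are given here as normalized counts, which are counts divided by the DESeq2 size factor of the library, per kilobase of merged exons, as mean ± SD over all 6 libraries. Ntn1, which encodes the laminin-related cue netrin-1, stood first at 5152 ± 412. It was followed by Slit3, a secreted ligand of Robo receptors, at 3854 ± 238, and by Sema3c, a secreted semaphorin, at 2864 ± 234. These 3 levels lay further apart than their SDs. Further down the order, Plxnd1 (1199 ± 112), Plxnb2 (1168 ± 106) and Sema4c (1122 ± 76.9) overlapped within their SDs.

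The cues and receptors of a pathway did not stand at the same level. Slit3 made up 93.9% ± 0.94 of the summed per-kilobase level of Slits and Robos after IC and of 92.0% ± 1.32 after vehicle (SD, n = 3 per group). Its receptor Robo1, the highest Robo, reached 187 ± 25.1 per kilobase, and the other cue, Slit2, 29.0 ± 4.66. Part of this gap comes from the merged exon lengths, which were 6067 bases for Slit3, 16511 for Robo1 and 25433 for Slit2. Merged exons can be longer than the transcripts in these cells. Before division by length, the mean normalized counts were 23379, 3080 and 739. Ntn1 held 67.4% ± 0.261 of the netrin family total after IC and 67.5% ± 2.18 after vehicle. Ntn4, a netrin found in basement membranes, stood at 1297 ± 113 per kilobase. The leading netrin receptor was Neo1, or neogenin, at 810 ± 44.2, whereas Dcc, the classical receptor of netrin-1 in axons, stood at 2.21 ± 2.7, at the low end of the group.

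Among semaphorins, Sema3c, the membrane-bound Sema4c and the secreted Sema3b (929 ± 56.4 per kilobase) led. Sema3c held 36.3% ± 2.85 of the semaphorin total after IC and 38.6% ± 1.47 after vehicle. Receptors for them were also detected. Plxna1, a signalling receptor that pairs with neuropilins, stood at 1563 ± 130, Nrp1 at 1067 ± 87.3 and Nrp2 at 383 ± 47.3 per kilobase. Plxnb2, a receptor for class 4 semaphorins including Sema4c, is given above.

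In the Eph system the B class led on both sides. Ephb4, the receptor that binds ephrin-B2, had the highest level of the Eph receptors at 887 ± 42.6 per kilobase, followed by Ephb3 at 548 ± 52.6. Ephb4 held 38.2% ± 1.04 of the Eph receptor total after IC and 38.3% ± 1.23 after vehicle. Efnb2 (421 ± 56.7) and Efnb1 (408 ± 47.6), both transmembrane ligands, led the ephrins and did not differ beyond their spread. Epha2, at 245 ± 66.6, was the highest A-class receptor, and Epha5, Ephb1 and Epha8 stood at 8.89, 7.58 and 1.41.

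**Figure D1:**
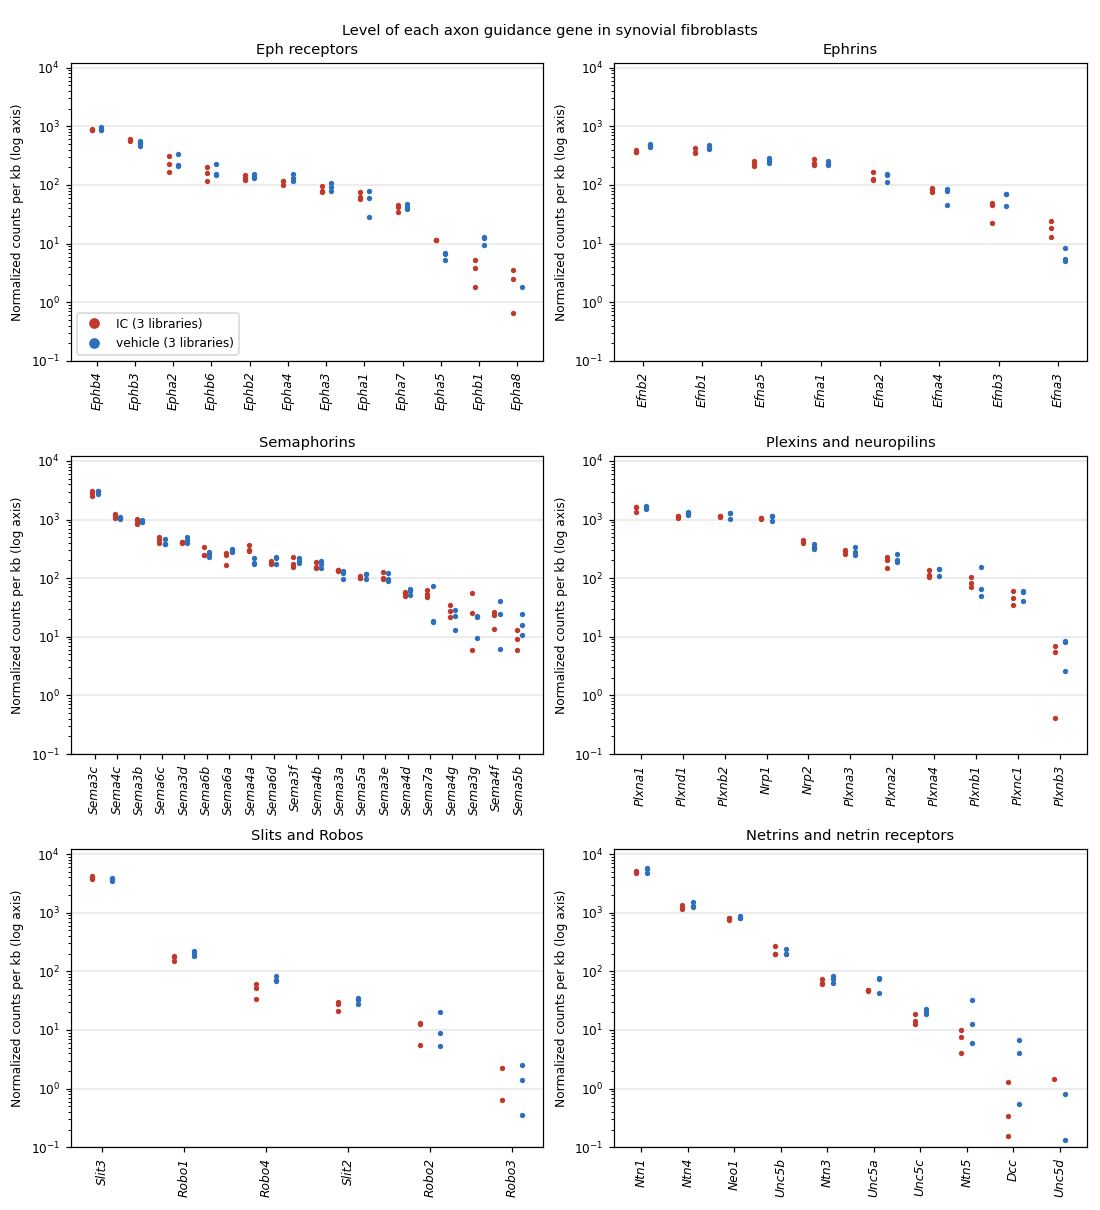
Level of each of the 67 genes, in normalized counts per kilobase of merged exons on a log axis, with 1 point per library (red, 3 IC libraries; blue, 3 vehicle libraries) and genes ordered within each family. Ntn1 (5152), Slit3 (3854) and Sema3c (2864) stand highest in their families, and libraries with a count of 0 (in Epha8, Robo3 and Unc5d) have no point on the log axis.

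The comparison of IC with vehicle moved few of these genes past the threshold. DESeq2 called 1 gene of the 65 higher after IC, Sema4a, and 1 lower, Efnb2, at an adjusted p under 0.05 over all genes tested. These are 1.54% each, and over all 19925 genes tested 1.03% were called higher and 1.07% lower, so the share of the group called was near that of all genes. The quasi-likelihood test of edgeR called 0 of the 65 and limma-voom 0, against 37 and 62 over all genes. The smallest edgeR adjusted p in the group was 0.0585, for Sema4a. At an unadjusted DESeq2 p under 0.05, 4 of the 65 were higher (6.15%, against 4.91% of all genes) and 9 were lower (13.8%, against 4.88%).

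Of the 65 log2 fold changes, 45 (69.2%) lay below 0, against 50.4% of all genes tested. The median was −0.12 in the group and −0.0019 over all genes. At a mean of 100 or more normalized counts, which 58 of the group reached, 39 (67.2%) lay below 0, against 50.3%, and the median was −0.09. This count was 34 of 58 without IC replicate 3, the lowest of all settings tried, and 41 of 58 at most. By family, 10 of 11 plexins and neuropilins, 8 of 9 netrins and netrin receptors, 5 of 6 Slits and Robos and 8 of 11 Eph receptors lay below 0. Semaphorins and ephrins were evenly divided, with 10 of 20 and 4 of 8 below 0. The median size of the log2 fold change was 0.157 in the 58 genes and 0.117 over all 13435 genes at that level.

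**Figure D2:**
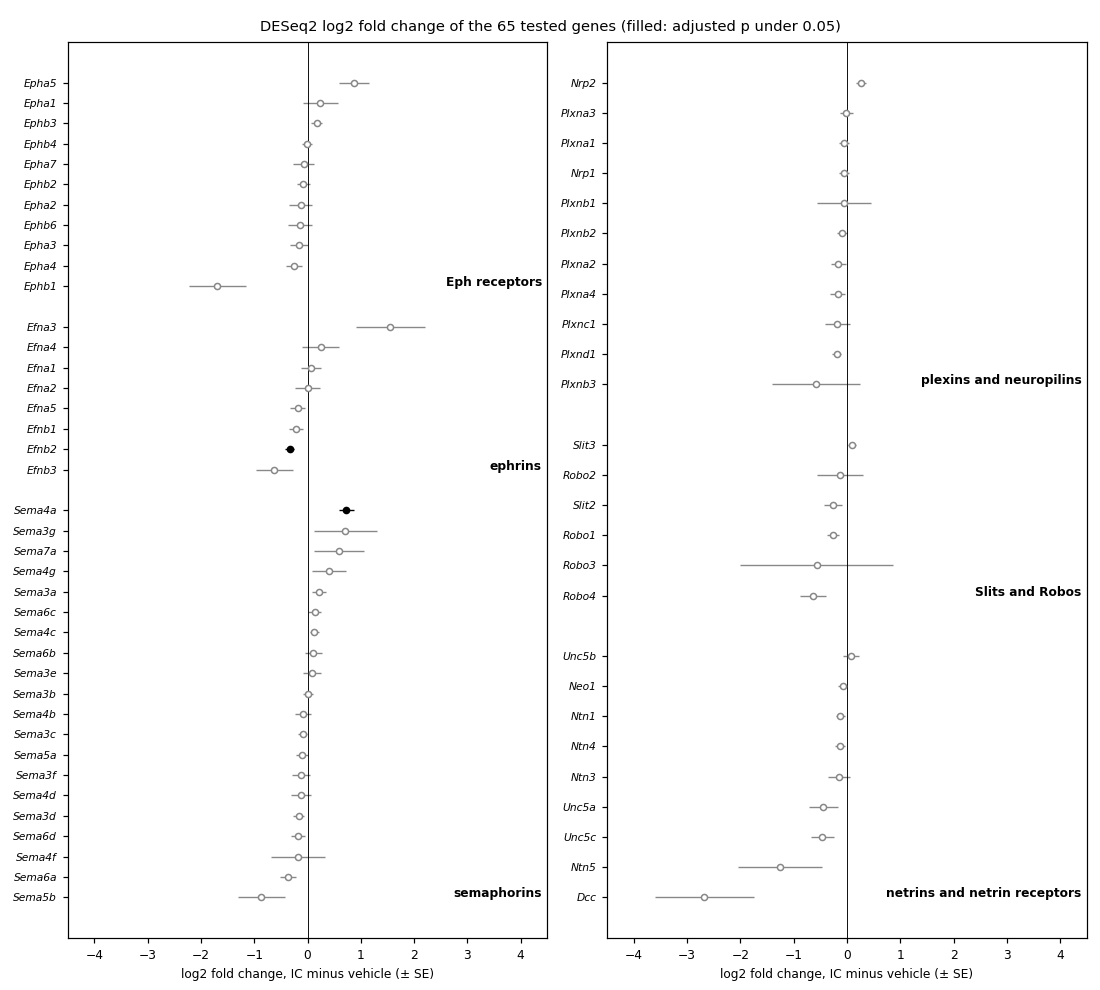
DESeq2 log2 fold change (IC minus vehicle, x axis; bars, standard error) of the 65 tested genes by family, with filled points for an adjusted p under 0.05. Sema4a (0.73) and Efnb2 (−0.34) are the filled points, and 45 of the 65 genes lie left of 0.

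Sema4a encodes a membrane-bound semaphorin that binds plexins and is known for roles in T cell priming as well as in the nervous system. It lies on chromosome 3, 88435959 to 88461182, on the minus strand (GRCm38). The IC libraries had 1658, 1978 and 1548 normalized counts and the vehicle libraries 1214, 983 and 925. Every IC library lay above every vehicle library. The IC mean was 1728 ± 223 and the vehicle mean 1041 ± 153 (SD, n = 3 per group), a 1.66-fold rise. The log2 fold change was 0.73 ± 0.143 (SE), with DESeq2's adjusted p at 8.41e-05. DESeq2 called it in all 6 fits that each left out 1 library, with adjusted p from 8.9e-07 to 0.0119. The call was lost by edgeR (adjusted p = 0.0585) and by limma-voom (adjusted p = 0.0525), with log2 fold changes of 0.73 and 0.71. Sema4a held 4.2% ± 0.661 of the per-kilobase semaphorin total after IC and 2.53% ± 0.455 after vehicle, so it remained a minor semaphorin in both groups.

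The receptors that can bind class 4 semaphorins did not pass the test. Plxnb1 had a log2 fold change of −0.06 (95% interval −1.06 to 0.94), Plxnb2 of −0.09 (−0.28 to 0.0978) and Plxnd1 of −0.19 (−0.36 to −0.026). The interval of Plxnb1 is wide in both directions, whereas that of Plxnb2 is narrow. None of the other class 4 semaphorins was called. Sema4c had a log2 fold change of 0.13, Sema4b of −0.08, Sema4d of −0.12, Sema4f of −0.18 and Sema4g of 0.40.

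Efnb2 encodes ephrin-B2, the surface ligand of EphB receptors that also marks arterial endothelium. It lies on chromosome 8, 8617434 to 8661242, on the minus strand. Normalized counts were 2657, 2533 and 2468 after IC and 3405, 3070 and 3201 after vehicle, without overlap. The gene fell after IC, with a vehicle mean of 3226 ± 169 and an IC mean of 2553 ± 95.9 (SD, n = 3 per group). Its log2 fold change was −0.34 ± 0.0928 (SE), at an adjusted p of 0.0161 with DESeq2. This call was lost without IC replicate 2 (adjusted p = 0.0820), without IC replicate 3 (0.0781) and without vehicle replicate 3 (0.0703), and with edgeR (0.120) and limma-voom (0.111). The log2 fold change itself lay between −0.37 and −0.30 in all these DESeq2 fits.

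Efnb1, the other abundant B ephrin, had 1447, 1262 and 1202 normalized counts after IC and 1659, 1395 and 1491 after vehicle. These groups overlapped, and the log2 fold change of −0.22 ± 0.126 (SE) did not pass the test (adjusted p = 0.552 by DESeq2). Efnb3 stood at 157, 148 and 72.6 after IC and 220, 137 and 223 after vehicle, also with overlap (log2 fold change −0.62, adjusted p = 0.535). The EphB receptors that bind these ligands were not called. Ephb4 (chromosome 5, 137350109 to 137378669) had normalized counts of 4095 ± 72.2 with IC and 4136 ± 302 with vehicle, with a log2 fold change of −0.01 and a 95% interval of −0.188 to 0.16. Ephb3 had a log2 fold change of 0.17 (95% interval −0.0281 to 0.371), and Ephb2 of −0.08. Ephb1, at a far lower level, lay lower in every IC library (log2 fold change −1.69, DESeq2 adjusted p = 0.0527) and was called lower with TMM factors and without IC replicate 1.

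Besides Sema4a and Efnb2, 6 genes with a mean of at least 100 had no overlap between groups but did not reach an adjusted p under 0.05. In total 4 of the 58 genes at that level lay higher in every IC library and 4 lay lower. These are 6.9% in each direction, against 9.36% and 8.54% of all genes at that level, so separation of the groups was no more frequent than over all genes.

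Epha5, on chromosome 5 (84054761 to 84417382), encodes an Eph receptor for A ephrins that is best known in the brain. It had 191, 192 and 194 normalized counts after IC and 116, 88.8 and 111 after vehicle. The IC libraries were nearly identical and all above vehicle. Its log2 fold change of 0.87 ± 0.287 (SE) was the largest among the genes at this level and had an adjusted p of 0.0766 by DESeq2. Over all alternatives that kept 6 libraries the adjusted p was 0.0633 to 0.366. The A ephrins that such a receptor binds did not follow in a called change, with log2 fold changes of 0.07 for Efna1, 0.0035 for Efna2, 0.25 for Efna4 and −0.19 for Efna5. Efna3, at a low level and with no adjusted p, had a log2 fold change of 1.56, and its groups did not overlap.

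The neuronal markers summed to 28 to 31.5 CPM after IC and 18.7 to 22 after vehicle. Tac1, which encodes the precursor of substance P, carried most of this sum and was called higher (879, 1117 and 1167 normalized counts against 657, 557 and 641; log2 fold change 0.77, adjusted p = 0.000173 by DESeq2). Snap25 had 0 to 6 raw counts per library, and Rbfox3 was at 0 in all IC libraries. The members did not move together, since Nefm was also higher in every IC library while Stmn2 was lower (159, 144 and 117 normalized counts against 181, 190 and 164). The sum of the cartilage and bone markers was higher in every IC library, at 678 to 772 CPM against 428 to 645. The matrix gene Comp carried most of this sum, with 32217 normalized counts on average after IC and 24643 after vehicle. Acan was called higher, Col2a1 and Sp7 lay lower in every IC library, and Sox9 had a log2 fold change of −0.0024. The part of these markers in the levels of Sema4a and Epha5 was not tested.

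Nrp2, on chromosome 1 (62703285 to 62818695), encodes the neuropilin that serves as co-receptor of Sema3f and of the lymphatic growth factor VEGF-C. Normalized counts were 4928, 5289 and 4632 after IC and 4568, 3744 and 4079 after vehicle. All IC libraries lay above vehicle, but IC replicate 3 and vehicle replicate 1 were close. The log2 fold change was 0.26 ± 0.0993 (SE), and DESeq2 gave an adjusted p of 0.173. Without vehicle replicate 1 it was 0.34 with an adjusted p of 0.0181. The related Nrp1, with 9166 to 11447 counts in the 6 libraries, had a log2 fold change of −0.06 (95% interval −0.244 to 0.123).

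Sema3a (chromosome 5, 13125414 to 13602565), the secreted repellent that binds Nrp1 with A-class plexins, had 1849, 1922 and 1881 normalized counts after IC and 1334, 1723 and 1812 after vehicle. The separation from vehicle replicate 3 was small, and vehicle replicate 1 stood apart from the other two. The log2 fold change of 0.22 ± 0.128 (SE) had an adjusted p of 0.57 by DESeq2, and was 0.0917 without vehicle replicate 1. The other secreted semaphorins at high level did not change by the test, with log2 fold changes of −0.09 for Sema3c, 0.00048 for Sema3b and −0.17 for Sema3d.

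**Figure D3:**
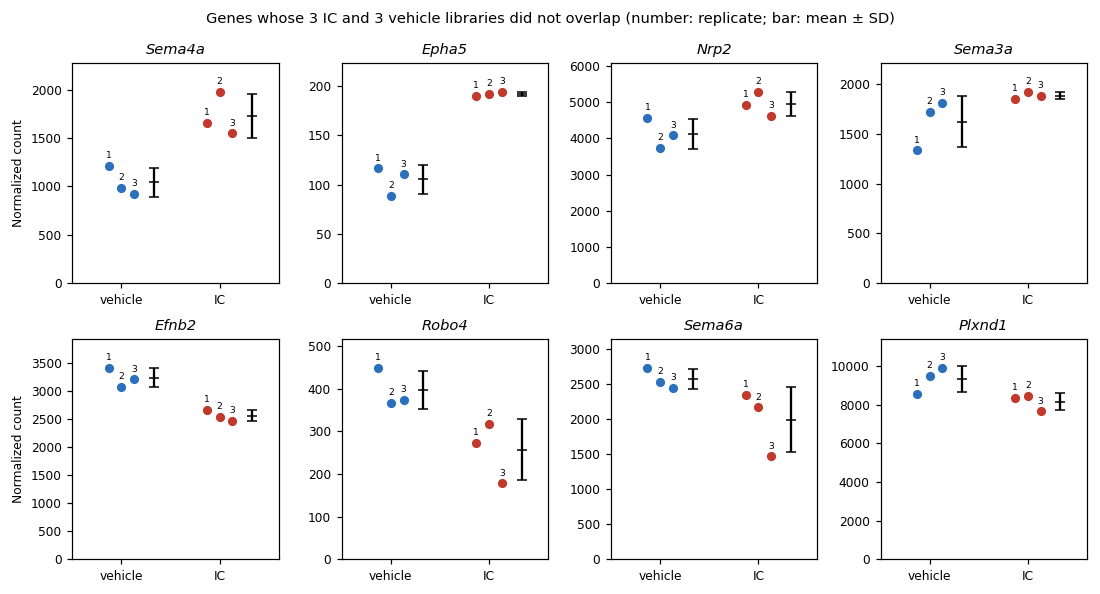
Normalized counts of the 8 genes at a mean of at least 100 whose 3 IC (red) and 3 vehicle (blue) libraries did not overlap, on axes that start at 0, with replicate numbers beside the points and bars for mean ± SD. Sema4a is higher in all IC libraries (1548 to 1978 against 925 to 1214), and for Robo4 and Sema6a IC replicate 3 lies well below the other IC libraries.

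Robo4, Sema6a and Plxnd1 lay lower in every IC library. Robo4, the Robo receptor of endothelial cells (chromosome 9, 37401897 to 37415115), had 273, 318 and 178 normalized counts after IC and 449, 367 and 374 after vehicle. Its log2 fold change was −0.63 ± 0.244 (SE), and its adjusted p by DESeq2 was 0.182. IC replicate 3 was the lowest library, and without it the log2 fold change was −0.43 and the adjusted p 0.55.

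Sema6a, a transmembrane semaphorin that binds plexins A2 and A4, had 2345, 2168 and 1469 normalized counts after IC and 2733, 2535 and 2449 after vehicle. The log2 fold change was −0.37 ± 0.148 (SE, adjusted p = 0.217 by DESeq2). It was −0.19 without IC replicate 3, which again held the lowest value. Its receptors Plxna2 and Plxna4 overlapped between groups, with log2 fold changes of −0.16 and −0.17.

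Plxnd1 (chromosome 6, 115954811 to 115995005), the receptor of Sema3e in developing vessels, had 8357, 8483 and 7668 normalized counts after IC and 8590, 9503 and 9925 after vehicle. IC replicate 2 and vehicle replicate 1 nearly met. The log2 fold change was −0.19 ± 0.0852 (SE), with 0.302 as adjusted p by DESeq2. It was −0.25, at an adjusted p of 0.0475, without vehicle replicate 1. Sema3e itself had a log2 fold change of 0.09.

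Endothelial markers did not all move in the same direction. The 12 markers summed to 268 to 344 CPM after IC and 332 to 397 after vehicle, with the lowest sum in IC replicate 3 and an overlap between groups at IC replicate 2 and vehicle replicate 2. Of the 12, 5 lay lower in every IC library and 1, Ackr1, lay higher (log2 fold change 0.34). DESeq2 called 3 lower, namely Kdr (log2 fold change −0.70), Cdh5 (−0.74) and Cldn5 (−0.62). Tek, Vwf, Pecam1, Plvap, Egfl7 and Flt1 overlapped between groups, with log2 fold changes of −0.07, −0.04, −0.41, −0.37, −0.24 and 0.16. Cdh5, which defines endothelial junctions, had 808, 794 and 369 normalized counts after IC and 1247, 997 and 1043 after vehicle. Mural cell markers summed to 501 to 617 CPM after IC and 620 to 668 after vehicle, and Myh11 was called lower. Of the 9 in the table, 3 lay lower in every IC library, namely Myh11, Notch3 and Des, and 0 lay higher. Des is also on the skeletal muscle list. The others overlapped, with log2 fold changes of 0.08 for Cspg4, 0.10 for Kcnj8, −0.09 for Abcc9, −0.37 for Mcam, −0.62 for Acta2 and −0.71 for Rgs5. The part of endothelial and mural cells in the levels of Efnb2, Robo4, Sema6a and Plxnd1 was not tested.

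**Figure D4:**
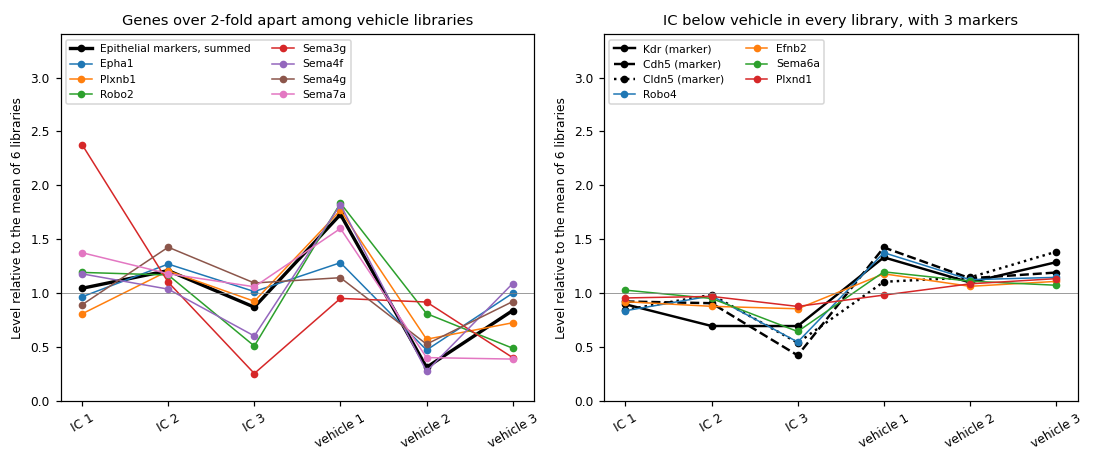
Level in each library divided by the mean of the 6 libraries (y axis). The left panel shows the 7 genes whose vehicle libraries differed by more than 2-fold, beside the summed epithelial markers. The epithelial list was chosen after seeing the data. The right panel shows the 4 genes lower in every IC library beside Kdr, Cdh5 and Cldn5, the 3 of 12 endothelial markers called lower. Both sets were picked for being lower after IC, so their shared fall was set by the choice. The other endothelial markers are not shown, among them Ackr1, which lay higher in every IC library. On the left vehicle replicate 1 is the highest vehicle library for all 7 genes, and on the right Robo4 and Cdh5 share their lowest value in IC replicate 3.

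Slit3, Ntn1 and Ntn4, the abundant Slit and netrin cues, were not called, and their intervals were narrow. Slit3 (chromosome 11, 35121224 to 35708507) had normalized counts of 24098 ± 1363 with IC and 22661 ± 1340 with vehicle, with a log2 fold change of 0.09 (95% interval −0.0643 to 0.242). Ntn1 (chromosome 11, 68209364 to 68400823) had 30953 ± 1123 with IC and 33727.5 ± 3109 with vehicle, with −0.12 (−0.285 to 0.0376). Ntn4 had a log2 fold change of −0.13 (−0.32 to 0.0544). The low-level cues had wider intervals, with −0.26 (−0.597 to 0.076) for Slit2, −0.15 (−0.551 to 0.248) for Ntn3 and −1.25 (−2.8 to 0.29) for Ntn5. On the receptor side, Robo1 (chromosome 16, 72308306 to 73046095) had 3013, 2863 and 2516 normalized counts after IC and 3692, 3407 and 2986 after vehicle. IC replicate 1 exceeded vehicle replicate 3, so the groups overlapped, and the log2 fold change of −0.27 ± 0.111 (SE) had an adjusted p of 0.246 by DESeq2. Unc5c, a repulsive netrin receptor, had 271, 363 and 239 counts after IC and 407, 363 and 433 after vehicle, meeting at IC replicate 2 and vehicle replicate 2 (log2 fold change −0.46, adjusted p = 0.372).

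Some genes of the group varied more between libraries of 1 group than between groups. Of the 58 genes with a mean of at least 100, 7 (12.1%) differed by more than 2-fold between the highest and lowest vehicle library, against 5.06% of all genes. They were Epha1, Plxnb1, Robo2, Sema3g, Sema4f, Sema4g and Sema7a, and vehicle replicate 1 was the highest vehicle library for all 7. Among IC libraries 3 of the 58 (5.17%) did so, against 3.19% of all genes. Over the 58 genes the median ratio of highest to lowest was 1.25 among vehicle and 1.23 among IC libraries, near the 1.22 and 1.18 of all genes.

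Plxnb1, a receptor of class 4 semaphorins, had 1499, 485 and 614 normalized counts in the vehicle libraries and 684, 1022 and 783 after IC. Sema7a, a membrane-anchored semaphorin that binds integrins and Plxnc1, had 241, 60.5 and 58.4 after vehicle and 207, 178 and 160 after IC. The 2 lower vehicle libraries of Sema7a lay below all IC libraries, and without vehicle replicate 1 DESeq2 called it higher. Sema3g, a vascular semaphorin, had 252, 117 and 26.9 counts after IC and 101, 97.3 and 42.6 after vehicle. Its log2 fold change of 0.71 rested on IC replicate 1 and was −0.17 without it. A list of 10 epithelial markers, chosen after seeing the data, summed to 125, 22.4 and 60.6 CPM in vehicle replicates 1, 2 and 3 and to 62.9 to 87.4 after IC. Vehicle replicate 1 was the highest, but this list and the widely spread genes were both picked with these libraries in view. None of these markers was called. Schwann cell markers spanned 42.4 to 137 CPM after IC and 50.6 to 110 after vehicle. The part of either cell type in these genes was not tested.

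Partners and downstream effectors of these receptors formed a separate list of 66 genes, of which 65 were in the table and 64 were tested. DESeq2 called 1 higher after IC (1.56%, against 1.03% of all genes) and 3 lower (4.69%, against 1.07%). edgeR called 0 of the 64, and limma-voom called 1 higher and 0 lower. At an unadjusted DESeq2 p under 0.05, 6 were higher and 6 lower (9.38% each, against 4.91% and 4.88% of all genes). Ngef, which encodes ephexin, a signalling protein that acts downstream of Eph receptors, had 991, 1044 and 1010 normalized counts after IC and 449, 636 and 630 after vehicle. The groups lay far apart, a log2 fold change of 0.83 ± 0.164 (SE) and an adjusted p of 9.15e-05 (DESeq2; 0.0545 with edgeR). It lies on chromosome 1, 87476834 to 87573870.

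Of the 3 partners called lower, 2 separated the groups. At a mean of at least 100, 7 of 58 partners lay lower in every IC library (12.1%, against 8.54% of all genes). In the other direction 5 of the 58 lay higher (8.62%, against 9.36%). Leaving out IC replicate 2 or vehicle replicate 3 left 1 partner called lower. Ncam1, an adhesion molecule of neural and muscle lineage cells (chromosome 9, 49502136 to 49798925), had 2279, 1937 and 1975 normalized counts after IC and 3177, 4021 and 2792 after vehicle (log2 fold change −0.69, adjusted p = 5.31e-05 by DESeq2 and 0.0593 by edgeR). Adam10, the protease that sheds ephrins and other surface proteins, lies on chromosome 9, 70678997 to 70780229. Adam10 had 3658, 3497 and 3776 after IC and 4387, 4380 and 4611 after vehicle (−0.29, adjusted p = 0.0266 by DESeq2 and 0.147 by edgeR). Cxcr4, the receptor of Cxcl12, overlapped between groups. It had 379, 121 and 167 after IC and 673, 487 and 345 after vehicle (−1.18, adjusted p = 0.0305 by DESeq2 and 0.299 by edgeR).

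Skeletal muscle markers, which Ncam1 accompanies in muscle precursor cells, summed to 30.1 to 77.1 CPM after IC and 83.2 to 176 after vehicle, and Myh1, Ttn and the precursor gene Myf5 were called lower. Their part in the level of Ncam1 was not tested. Among all partners 37 of 64 lay below 0, with a median log2 fold change of −0.05.

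**Figure D5:**
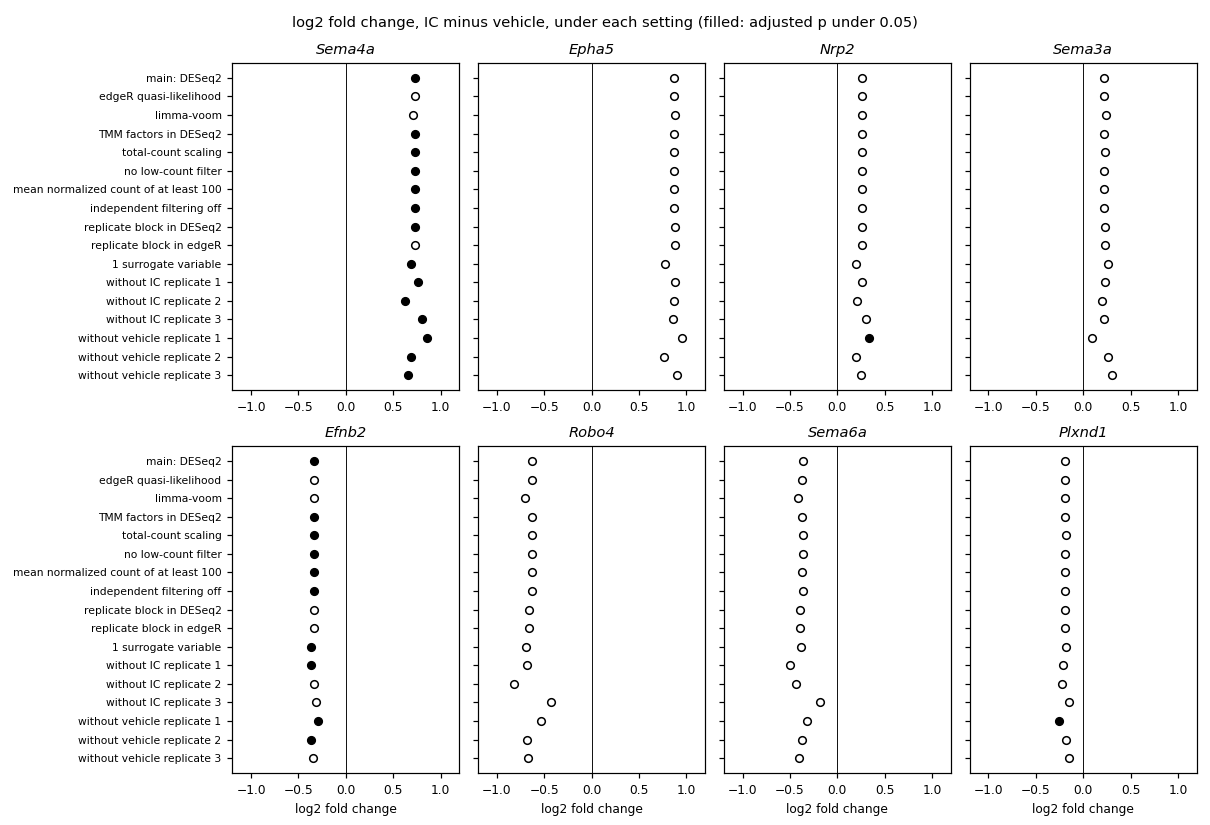
Log2 fold change (IC minus vehicle, x axis) of the 8 genes without overlap between groups under the main DESeq2 fit and each alternative (y axis), with filled points for an adjusted p under 0.05. Each gene keeps its side of 0 in all fits, Sema4a is open under edgeR, limma-voom and the replicate block in edgeR, and Nrp2 and Plxnd1 are filled without vehicle replicate 1 alone.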

How the data were processed

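Raw read counts per gene were deposited by the authors as a table of 6 libraries. According to the submitters' processing notes they were made with Trim Galore, FastQC, HISAT2 on mm10 and featureCounts. Versions, annotation and the strand setting of counting are not given in the sources used here. The labels name the Illumina Stranded Total RNA Prep kit and the study's methods the SMARTer Stranded Pico kit. Exons of Efna3, Efna4, Epha1, Ntn5, Plxna1 and Sema4c overlap a gene on the opposite strand over 6.01% to 23.4% of their length. Their counts are therefore uncertain. Genes with smaller overlaps are not listed. Coordinates and exon lengths were taken from GENCODE M21 by symbol (GRCm38), which matched 23890 symbols.

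Groups were taken from the labels. The 19925 genes that reached 10 counts in 3 or more libraries were compared between IC and vehicle with the Wald test of DESeq2 1.42.0 in R 4.3.3, which the study's methods name, with default settings and treatment as the only term. The 4423 genes left out held 0.0429% of counts. The threshold was a Benjamini-Hochberg adjusted p under 0.05, and 3870 genes received no adjusted p. Fold changes are unshrunken. Alternatives were edgeR 4.0.16 quasi-likelihood, limma-voom (limma 3.58.1), TMM or total-count scaling, other count filters, a block for the replicate number, 1 surrogate variable (sva 3.50.0, a package the methods name without a step) and each library left out. The tests were tested on simulated data. Markers were summed as CPM for fibroblasts, endothelial, mural, Schwann, neuronal, skeletal muscle, macrophage, cartilage and bone, lymphocyte and epithelial cells.

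The members and gene lists were chosen with earlier results of these data known. Genes were named if called, if without overlap at a mean of at least 100, if among the highest per kilobase in a family (3 semaphorins, 2 otherwise), or if among the 3 highest or 3 lowest log2 fold changes at that mean. Called partners were named too. Other genes were named after their values were seen.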

Additional observations from a re-analysis of the deposited data

How the results depend on the processing

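The number of genes called depended on the test. Sema4a was called in 7 of 10 alternatives with 6 libraries and Efnb2 in 6 of 10. Both lost their call with edgeR (0 higher and 0 lower among the group, 0 higher and 0 lower among partners). With limma-voom 0 genes of the group were called higher and 0 lower, and among partners 1 higher and 0 lower. TMM factors in DESeq2 gave 2 genes lower, adding Ephb1, and 1 surrogate variable gave 2 partners higher. Leaving out 1 library gave 1 to 3 genes higher and 0 to 2 lower in the group, and 1 to 5 higher and 1 to 3 lower among partners. The highest counts came without vehicle replicate 1, which raised the calls over all genes from 419 to 671. The replicate block was tried because both groups carry numbers 1 to 3. Same-numbered libraries did not deviate together (correlations of −0.12, −0.0792 and 0.00769). This gave no sign that the numbers pair the samples. With 3 libraries per group it cannot exclude a weak pairing. With the replicate block in DESeq2 the group had 0 genes lower (Efnb2 adjusted p = 0.0922), and with the replicate block in edgeR it had 0 higher and 0 lower, as did partners (0 and 0).

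Of the log2 fold changes under alternatives of the genes of the group that the naming rule selects, 327 kept direction and call, 10 lost a call, 2 gained one and 13 changed sign, all of the last without a call. Sema3b, at 0.00048, was −0.00023 with edgeR, −0.0023 with limma-voom, −0.00021 with TMM factors, −0.0011 at a mean of at least 100, −0.0024 and −0.00297 with the replicate block in DESeq2 and edgeR, and −0.0177 with 1 surrogate variable. With 1 library left out it was −0.0647 to 0.0607, Ephb4 −0.045 to 0.0483, Plxna1 −0.11 to 0.0354 and Sema3g −0.167 to 1.2. With 3 libraries per group, intervals of low genes were wide.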

Other observations

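Genes of low level held the largest fold changes of the group. These 3 were chosen after their values were seen. Ephb1, an Eph receptor for B ephrins, had 36.4, 26.9 and 12.5 normalized counts after IC and 91.0, 86.0 and 65.7 after vehicle. The groups did not overlap, and the log2 fold change of −1.69 ± 0.529 (SE) had an adjusted p of 0.0527 by DESeq2. It was called lower with TMM factors and without IC replicate 1, and its edgeR adjusted p was 0.230. Dcc, the netrin receptor, had 4.41, 2.07 and 17.0 after IC and 90.2, 53.8 and 7.3 after vehicle. Vehicle replicate 3 lay below IC replicate 3, and the log2 fold change of −2.68 received no adjusted p. Without vehicle replicate 3 DESeq2 called it lower. Efna3, an A ephrin, had 32.0, 44.4 and 60.0 after IC and 12.3, 20.8 and 13.4 after vehicle, with a log2 fold change of 1.56 and no adjusted p. Its exons overlap an antisense gene over 14.1% of their length, so reads of the pair cannot be told apart where strand was not used.

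Vehicle replicate 1 and IC replicate 3 held the extremes of the group more often than other libraries. Vehicle replicate 1 was the highest of the 6 libraries for 18 of the 58 genes with a mean of at least 100. Over all 13435 genes at that level it was the highest for 16.5%. IC replicate 3 was the lowest for 18 of the 58 genes, and for 17.4% of all genes at that level. The other libraries were the highest for 4 to 11 of the 58 genes and the lowest for 5 to 11.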
